A study of Homo sapiens with 18 samples.

Results

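The proteasome subunit genes were taken by name: symbols that begin with PSMA, PSMB, PSMC or PSMD and a digit, on probe sets annotated with 1 symbol. Each gene was read from its brightest probe set and kept where its highest group mean reached 4 on the log2 scale. The rule kept 36 of 10717 genes. Of these, 33 encode subunits or base assembly chaperones of the proteasome, and the other 3 (PSMA3-AS1, PSMB8-AS1 and PSMC3IP) match by name but encode neither. A further 4 of the 40 matching symbols stayed below the level: PSMA8, the testis form of an alpha subunit, had a highest group mean of 3.07, and PSMD6-AS2, PSMD7-DT and PSMD14-DT had 3.36, 2.41 and 2.39. PSMA6, PSMB11, PSMC5, PSMD7 and PSMD13 were not analysed here.

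RNA came from HK-2, an immortalized human cell line derived from proximal tubule epithelium of the kidney, and the 18 arrays therefore describe 1 line. Cells exposed to CsA (cyclosporin A, a calcineurin inhibitor used against transplant rejection) for 12, 24 or 48 h were set against vehicle-exposed control cells of the same times. Each of the 6 groups held 3 biological replicates, and the labels give no CsA dose. All arrays carry the same laboratory number. Of 10 proximal tubule markers 1 passed the level filter, of 5 renal epithelial markers 5, of 5 fibroblast markers 4 and of 4 podocyte markers 1, against 0 of 5 each for leukocyte, endothelium and distal nephron. Some markers varied widely: the epithelial CDH1 spanned 3.05 to 9.23 and the fibroblast marker DCN 8.24 to 11.76, where the epithelial KRT18 spanned 11.89 to 13.46. A part of this spread in the subunit levels was not tested. The number of arrays limits the precision: the 95% interval of a CsA difference at 1 time reached a median of 0.38 to either side over the 33 genes. In RNA from whole cultures, fewer cells of a kind and less RNA per cell cannot be told apart.

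The proteasome degrades proteins tagged with ubiquitin. Its barrel-shaped core is made of alpha rings, which gate the entrance, around beta rings, which hold the protease sites. In most cells these sites belong to PSMB5, PSMB6 and PSMB7. Interferon-exposed and immune cells make PSMB8, PSMB9 and PSMB10 in their place, which gives the immunoproteasome, known for producing peptides for antigen presentation. The regulatory particle on top of the core has a base, with the PSMC ATPases that unfold the substrate and the large scaffold subunits PSMD1 and PSMD2, and a lid, where PSMD14 removes the ubiquitin chain. NFE2L1 is known to raise transcription of subunit genes through antioxidant response elements when proteasome activity falls.

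The upstream sequences of 6 genes are shown beside the genes described most closely below: the immunoproteasome genes, and PSMD1, PSMD3 and PSMD14, which fell from 24 to 48 h in control arrays. No result below rests on these sequences. Each line holds the 150 bases before the RefSeq gene start, read 5′ to 3′ on the gene's strand (GRCh38.p14). Capitals mark matches, on either strand, to an antioxidant response element (TGACNNNGC), a CCAAT box (CCAAT), an interferon gamma activated site (GAS, TTCNNNGAA), an interferon-stimulated response element core (GAAANNGAA) or a kappaB site.
PSMB8, chr6:32844680-32844829, minus strand: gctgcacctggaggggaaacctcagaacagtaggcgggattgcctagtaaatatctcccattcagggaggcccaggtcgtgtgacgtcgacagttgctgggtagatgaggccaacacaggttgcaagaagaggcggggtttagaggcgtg
PSMB9, chr6:32854042-32854191, plus strand: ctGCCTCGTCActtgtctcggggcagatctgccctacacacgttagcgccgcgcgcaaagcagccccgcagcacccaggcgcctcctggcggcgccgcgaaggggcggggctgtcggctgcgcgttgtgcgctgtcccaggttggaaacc
PSMB10, chr16:67936851-67937000, minus strand: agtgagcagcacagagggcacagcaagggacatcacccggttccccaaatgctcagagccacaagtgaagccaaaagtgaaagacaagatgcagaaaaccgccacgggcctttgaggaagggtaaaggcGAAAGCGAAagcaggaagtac
PSMD1, chr2:231056717-231056866, plus strand: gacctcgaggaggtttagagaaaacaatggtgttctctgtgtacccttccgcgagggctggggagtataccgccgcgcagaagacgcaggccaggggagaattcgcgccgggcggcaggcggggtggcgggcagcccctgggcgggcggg
PSMD3, chr17:39980657-39980806, plus strand: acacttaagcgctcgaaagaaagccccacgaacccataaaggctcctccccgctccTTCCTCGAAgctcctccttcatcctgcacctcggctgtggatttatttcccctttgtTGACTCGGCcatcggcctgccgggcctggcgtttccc
PSMD14, chr2:161308275-161308424, plus strand: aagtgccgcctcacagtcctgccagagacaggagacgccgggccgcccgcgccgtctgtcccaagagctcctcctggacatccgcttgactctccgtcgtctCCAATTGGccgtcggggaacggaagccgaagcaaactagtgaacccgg

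PSMB10 held an interferon-stimulated core that begins 21 bases before its start, and PSMD3 held an antioxidant response element at 37 bases and a GAS match at 94 bases. PSMB9 held an antioxidant response element match at 148 bases. Over the 250 bases before the start, RefSeq promoters matched 28 of the 33 genes. The antioxidant response element was found in 6 of the 28 (21.4%), against 10.9% of all 35116 promoters of that length. The CCAAT box was found in 13 (46.4%), against 32%. GAS and the interferon-stimulated core were each found in 3 (10.7%), against 6.57% and 6.88%, and the kappaB site in 0, against 5.21%. In PSMD14 the CCAAT box overlaps its own match on the other strand, and in the printed windows no different motifs overlapped.

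CsA left no subunit past the threshold at any time, while the 3 immunoproteasome genes had the highest median difference of the 8 roles at 48 h, 0.61. The median difference, CsA minus control, over the 33 genes was -0.04 at 12 h, -0.14 at 24 h and 0.06 at 48 h on the log2 scale, against all-gene medians of -0.01, -0.01 and 0.00. With limma and Benjamini-Hochberg adjustment over 10717 genes, 0 of 33 passed at 12 h, at 24 h and at 48 h, and at 48 h the share of all genes called was 0.439% (at 12 and 24 h it was 0%). At an unadjusted p under 0.05, 0, 0 and 3 of the 33 were counted, against 0.914%, 3.79% and 16% of all genes. The arrays with the same replicate number moved together across groups. With that number as a block the count stayed at 0 at each time, where 0%, 0.00933% and 10.8% of all genes passed, and 0, 1 and 7 of the 33 (21.2% at 48 h) had an unadjusted p under 0.05, against 2.42%, 9.41% and 28.1% of all genes. The average over times also gave 0, against 0.084% of all genes without the block and 4.61% with it, and so did the test of a CsA difference that changes with time, against 0.0373% and 0.028%.

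The small differences at 24 h ran mostly one way. CsA was below control in the mean for 31 of 33 subunits (93.9%), all but the ATPase PSMC6 and the chaperone PSMD5. Of all genes, 48.0% had a mean difference above 0 at 24 h. CsA was below control in all 3 replicate pairs for 26 of 33 (78.8%), against 23.3% of all genes, and the median over the 33 was -0.12, -0.10 and -0.11 in the pairs numbered 1, 2 and 3. The 2 lowest means belonged to PSMD1 (-0.28) and the lid subunit PSMD12 (-0.27). The 2 highest belonged to PSMC6 (0.02) and PSMD5 (0.02). No subunit's CsA arrays lay wholly below its control arrays at 24 h. The difference exceeded the SD of both groups for 4 of the 33 (PSMB6, PSMC2, PSMD1 and PSMD6). The shares of all genes for these counts were not computed, so neither can be called low or high. At 12 h 21 of 33 were negative, where 46.7% of all genes were above 0. The largest differences at 12 h were 0.15 for PSMB3 and 0.08 for PSMC4 above 0, and -0.18 for PSMA3 and -0.16 for PSMD12 below it.

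**Figure D1:**
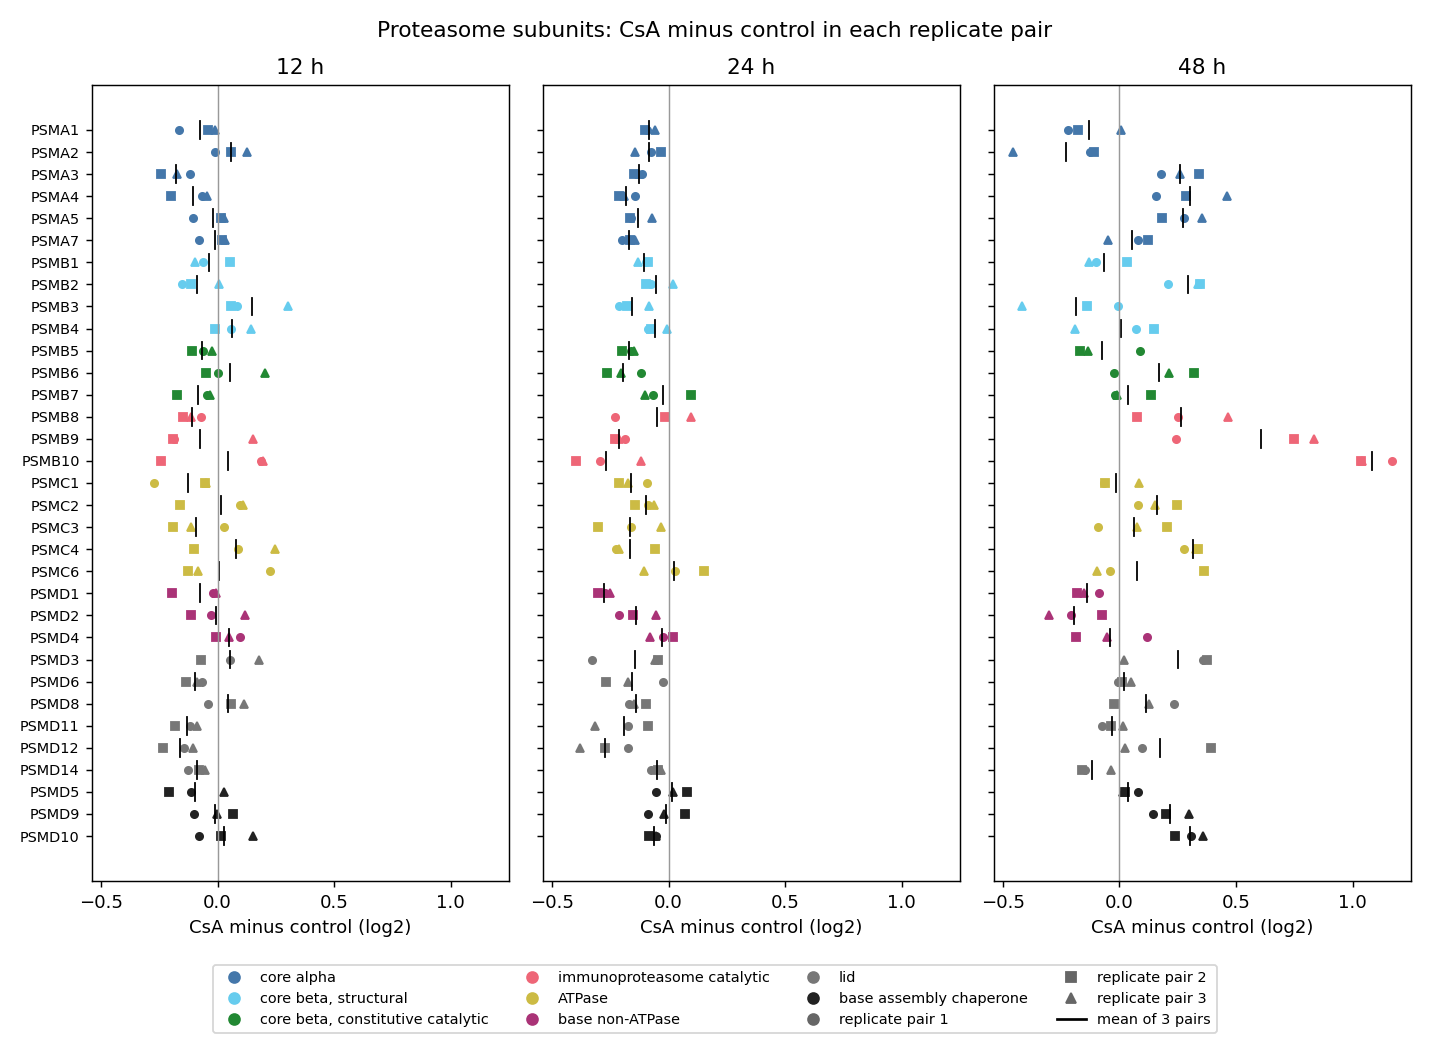
Difference between CsA and control (log2) for each of the 33 subunits in each replicate pair at 12, 24 and 48 h, with the mean of the 3 pairs as a black bar and colours for the subunit's role. At 24 h 26 of 33 subunits have all 3 points below 0, and at 48 h the points of PSMB10 lie furthest to the right, at 1.04 to 1.17.

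At 48 h PSMB10 and PSMB9 had the most positive differences of the 33 subunits, and PSMB8 came after several others. PSMB10 measured 8.49, 9.58 and 10.37 in the CsA arrays numbered 1, 2 and 3, against 7.33, 8.54 and 9.33 in the control arrays. The ranges of the groups overlapped, yet CsA was above control by 1.17, 1.04 and 1.04 within the pairs. The mean difference was 1.08 (SE 0.50, 95% interval 0.01 to 2.15, n = 3 each), with a limma adjusted p of 0.305 without the block, 0.0595 with it and 0.0306 when the 48 h arrays were fitted alone with the block. The value moved with single arrays: leaving out 1 array of 48 h gave 0.54 (without the control array numbered 1) to 1.57 (without the CsA array numbered 1), and 0.64 without the CsA array numbered 3, while leaving out a whole pair gave 1.04 to 1.10. PSMB10 carries the trypsin-like site of the immunoproteasome, the place of PSMB7.

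PSMB9, which takes the place of PSMB6, measured 8.07, 9.05 and 9.52 in CsA arrays, against 7.82, 8.31 and 8.69 in control arrays at 48 h. Each CsA array was above its control partner, by 0.24, 0.75 and 0.83, and the groups overlapped. The mean difference was 0.61 (SE 0.30, limma adjusted p = 0.337, and 0.156 with the block). Leaving out 1 array of 48 h gave 0.29 (without the CsA array numbered 3, adjusted p = 0.762) to 1.02 (without the CsA array numbered 1, adjusted p = 0.0277), and it was 0.38 without the control array numbered 1. Leaving out a whole pair gave 0.50 to 0.79, with adjusted p of 0.346 or more. PSMB8, which takes the place of PSMB5, measured 10.39, 10.43 and 10.63 in CsA arrays, against 10.14, 10.35 and 10.16 in control arrays. Here the groups did not overlap, and the difference was 0.26 (SE 0.19, limma adjusted p = 0.568, and 0.273 with the block).

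At 12 and 24 h the 3 genes showed no positive difference of this size. Within the pairs at 24 h, CsA was below control by 0.29, 0.40 and 0.12 for PSMB10 and by 0.19, 0.23 and 0.21 for PSMB9. Such a result in all 3 pairs was found for 23.3% of all genes. For PSMB8 the pairs gave -0.23, -0.02 and 0.10. PSMB10 averaged 8.68 ± 0.37 in CsA arrays and 8.64 ± 0.23 in control arrays at 12 h (SD, n = 3 each), and 8.36 ± 0.56 in CsA arrays and 8.63 ± 0.43 in control arrays at 24 h. PSMB9 averaged 8.05 ± 0.04 in CsA and 8.13 ± 0.20 in control arrays at 12 h, and 8.03 ± 0.24 in CsA and 8.24 ± 0.23 in control arrays at 24 h. PSMB8 averaged 9.79 ± 0.31 in CsA and 9.90 ± 0.30 in control arrays at 12 h, and 10.00 ± 0.15 in CsA and 10.05 ± 0.30 in control arrays at 24 h. The change of the CsA difference from 24 to 48 h was 1.35 for PSMB10 and 0.82 for PSMB9, with limma adjusted p = 0.916 and 0.912, and 0.282 and 0.371 with the block.

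The constitutive catalytic subunits lay closer to 0. PSMB5, the chymotrypsin-like site, measured 11.11, 11.03 and 11.05 in CsA arrays, against 11.02, 11.20 and 11.18 in control arrays at 48 h. PSMB6, the caspase-like site, measured 10.76, 11.04 and 11.40 in CsA arrays, against 10.79, 10.73 and 11.19 in control arrays. PSMB7, the trypsin-like site, measured 12.34, 12.55 and 12.60 in CsA arrays, against 12.36, 12.41 and 12.62 in control arrays. All 3 groups of values overlapped, with differences of -0.07 (95% interval -0.45 to 0.31), 0.17 (-0.18 to 0.52) and 0.04 (-0.30 to 0.37). The lowest limma adjusted p of the 3 was 0.701, and 0.339 with the replicate number as a block.

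**Figure D2:**
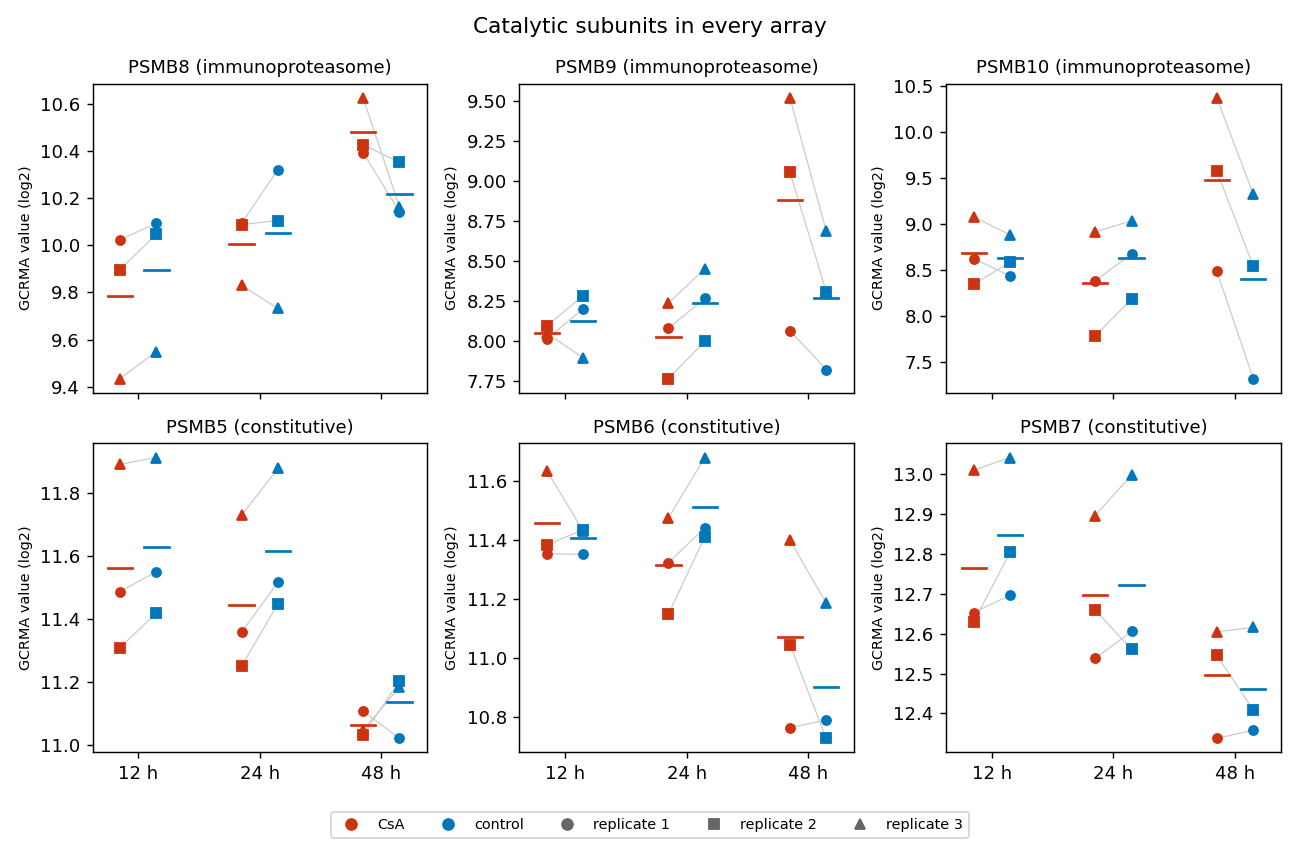
GCRMA value (log2) of the 3 immunoproteasome and 3 constitutive catalytic subunits in every array by time, with CsA to the left of control, bars for group means and grey lines joining arrays of the same replicate number. At 48 h every line of PSMB8, PSMB9 and PSMB10 slopes down from CsA to control, and each panel has its own vertical scale.

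Among the other roles at 48 h, the 3 base assembly chaperones were all above 0, with a median of 0.22. PSMD10 (gankyrin), a chaperone of the base ATPases, measured 11.33, 11.55 and 11.37 in CsA arrays, against 11.02, 11.32 and 11.01 in control arrays. The groups did not overlap, and the difference of 0.30 (SE 0.10) had the smallest adjusted p of the 33, 0.173 without the block and 0.0565 with it. The base scaffold and ubiquitin-receptor subunits PSMD1, PSMD2 and PSMD4 were all below 0, with a median of -0.14. The alpha subunits had 4 of 6 above 0 (median 0.16), the structural beta subunits 2 of 4 (-0.03), the ATPases 4 of 5 (0.07) and the lid 4 of 6 (0.07). The lowest differences were -0.23 for PSMA2 and -0.19 for PSMD2.

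Across the 33 subunits at 48 h, CsA was above control in all 3 pairs for 14 (42.4%), against 25.7% of all genes. A mean difference above 0 was found for 22, against 50.2% of all genes. Non-overlap was found for 5 with CsA higher (PSMA3, PSMB8, PSMC2, PSMD3 and PSMD10), against 8.25% of all genes, and for 1 with CsA lower (PSMD1), against 6.77%. The median over the 33 was 0.08, 0.14 and 0.02 in the pairs numbered 1, 2 and 3. Of the 33 genes, 13 had other probe sets past the level, 18 in all, and 11 of these 18 had the same sign at 48 h as the brightest one. Among the genes without overlap, the dimmer probe sets of PSMC2 gave -0.16 and 0.06, where the brightest gave 0.16. Those of PSMD10 (0.29) and PSMD1 (-0.08) kept the sign of the brightest.

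Of the 3 genes that match by name but encode no subunit or chaperone, PSMC3IP passed the test. It encodes a partner of the recombinases in meiosis and homologous recombination. It measured 7.05, 6.25 and 6.99 in CsA arrays, against 8.03, 7.65 and 8.22 in control arrays at 48 h, with no overlap. It fell by 1.20 (SE 0.22), with a limma adjusted p of 0.0372, which became 0.00778 once the block was added. The call was lost in several alternatives, for example with an adjusted p of 0.211 without the CsA array numbered 2. The antisense RNAs differed by -0.26 (PSMA3-AS1) and 0.20 (PSMB8-AS1) at 48 h, with adjusted p of 0.758 and 0.708.

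More subunits passed the test between times in culture than between CsA and control, and the same held for all genes. From 24 to 48 h, 22 of 33 were lower in CsA arrays (median -0.20) and 29 of 33 in control arrays (median -0.27). Of all genes, 49.8% were higher in CsA arrays (median -0.001) and 49.6% in control arrays (median -0.003). In CsA arrays 4 subunits fell (12.1%), against 12.3% of all genes, and with the block 14 (42.4%), against 20.5%. In control arrays 8 fell (24.2%), against 7.16% of all genes, and with the block 15 (45.5%), against 16%. Without the block 3 genes (PSMB3, PSMD1 and PSMD14) fell in both, which is 75% of those in CsA arrays and 37.5% of those in control arrays. With the block 12 fell in both, 85.7% and 80% of those lists. Over the 3 times, the limma F test called 9 of 33 (27.3%) in CsA arrays, against 28.3% of all genes, and 9 of 33 in control arrays, against 14.2%. With the block these were 21 (63.6%), against 47.3%, and 19 (57.6%), against 33.5%. No subunit passed between 12 and 24 h in either treatment.

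PSMD1, the base scaffold that receives ubiquitin-binding proteins, measured 11.32, 11.30 and 11.65 in CsA arrays at 12 h, 11.10, 10.97 and 11.43 at 24 h, and 10.34, 10.34 and 10.32 at 48 h. In control arrays it measured 11.34, 11.50 and 11.65 at 12 h, 11.37, 11.28 and 11.68 at 24 h, and 10.43, 10.52 and 10.48 at 48 h. Every 48 h array lay below every earlier one in both treatments. The change from 24 to 48 h was -0.84 in CsA arrays (SE 0.14, limma adjusted p = 0.000937) and -0.97 in control arrays (SE 0.14, adjusted p = 0.00101).

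PSMD14, the lid deubiquitinase, had the same order of times. It averaged 12.30 ± 0.07, 12.21 ± 0.11 and 11.61 ± 0.17 at 12, 24 and 48 h in CsA arrays, and 12.39 ± 0.04, 12.26 ± 0.09 and 11.72 ± 0.10 in control arrays (SD, n = 3). From 24 to 48 h it fell by 0.60 in CsA arrays (limma adjusted p = 0.00108) and by 0.54 in control arrays (adjusted p = 0.00529). PSMB3, a structural beta subunit, fell by 0.68 in CsA arrays (adjusted p = 0.0143) and by 0.65 in control arrays (adjusted p = 0.0303). PSMA2, an alpha subunit, fell by 0.49 in CsA arrays (adjusted p = 0.0301), and its control change was -0.35 (adjusted p = 0.152). The lid subunit PSMD3 fell by 0.84 in control arrays (adjusted p = 0.0157), and its CsA change was -0.45 (adjusted p = 0.127, and 0.0338 with the block). The other genes that fell in control arrays without the block were PSMB1, PSMB2, PSMB6 and PSMC3, by 0.35 to 0.74. The second base scaffold, PSMD2, changed by -0.89 in CsA arrays (adjusted p = 0.0541, and 5.45e-05 with the block) and by -0.84 in control arrays (0.0939, and 0.000171 with the block).

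The immunoproteasome subunits moved the other way in CsA arrays. From 24 to 48 h PSMB9 rose by 0.85 (SE 0.30, limma adjusted p = 0.0496), the only subunit of 33 to rise without the block, against 12.9% of all genes. PSMB10 changed by 1.12 (adjusted p = 0.121) and PSMB8 by 0.48 (adjusted p = 0.0796). With the block all 3 rose (adjusted p = 0.0212, 0.0184 and 0.0205 for PSMB9, PSMB10 and PSMB8), as did PSMA5 and PSMD9, against 21.3% of all genes. In control arrays the changes were 0.03 for PSMB9, -0.23 for PSMB10 and 0.17 for PSMB8, and none passed, with or without the block. These CsA and control changes were not shown to differ: the tests of that difference above missed the threshold for PSMB10 and PSMB9, and for PSMB8 its adjusted p was 0.980 (0.529 with the block).

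For a few genes the time direction depended on the probe set. The sign of the control change was that of the brightest probe set for 13 of the 18 other probe sets. PSMD1's other probe set gave -0.83 in CsA and -1.06 in control arrays. PSMA5's dimmer probe set gave 2.28 in CsA and 1.70 in control arrays, where the brightest gave 0.37 and -0.04. PSMD11's dimmer probe set gave 0.42 in CsA and -0.10 in control arrays, where the brightest gave -0.41 and -0.57. PSMD12's other probe set gave 0.21 in CsA and -0.04 in control arrays, where the brightest gave -0.33 and -0.77. The 2 dimmer probe sets of PSMC2 gave 0.28 and 0.26 in CsA arrays and 0.35 and 0.27 in control arrays, where the brightest gave 0.05 and -0.21.

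**Figure D3:**
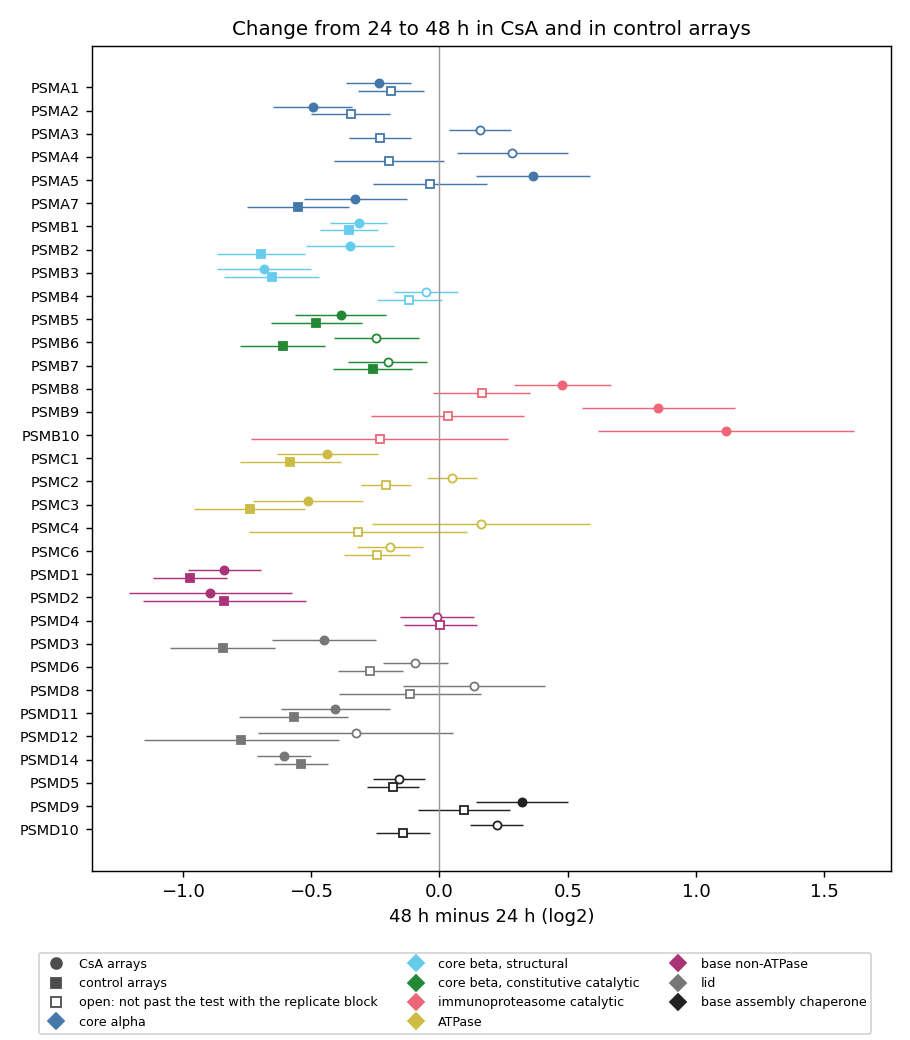
Change from 24 to 48 h (log2, with its standard error from the fit without the block) of each subunit in CsA arrays (circles) and control arrays (squares), filled where the adjusted p with the replicate block was under 0.05. Most filled symbols lie left of 0, from PSMB7 at -0.26 to PSMD1 at -0.97 in control arrays, while PSMB8, PSMB9 and PSMB10 lie right of 0 in CsA arrays, at 0.48, 0.85 and 1.12.

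Subunit levels also differed by replicate number. The limma F test of the number called 24 of 33 (72.7%), against 46.7% of all genes, and all 24 were higher in the arrays numbered 3 than in the mean of the other two numbers. The median of that difference was 0.30 over the 33, with 31 above 0, against -0.02 over all genes, of which 47.9% were above 0. The arrays numbered 3 were highest in all 6 groups for 16 of the 33, against 11.7% of all genes. The largest values were 0.91 for the ATPase PSMC4, 0.85 for PSMB10, 0.82 for PSMD12 and 0.69 for PSMD2. PSMC4 measured 11.63 in the third CsA array at 12 h beside 10.49 and 10.32 in the other two, and 11.38 in the third control array beside 10.40 and 10.42.

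PSMB8 (-0.28) and PSMD10 (-0.08) were the 2 genes below 0. A 3′ minus 5′ difference of the ACTB control probe sets, which reads RNA integrity, spanned 0.78 to 0.86 in the arrays numbered 3, 0.71 to 1.10 in those numbered 2 and 0.67 to 1.21 in those numbered 1. Its part in the subunit levels was not tested.

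**Figure D4:**
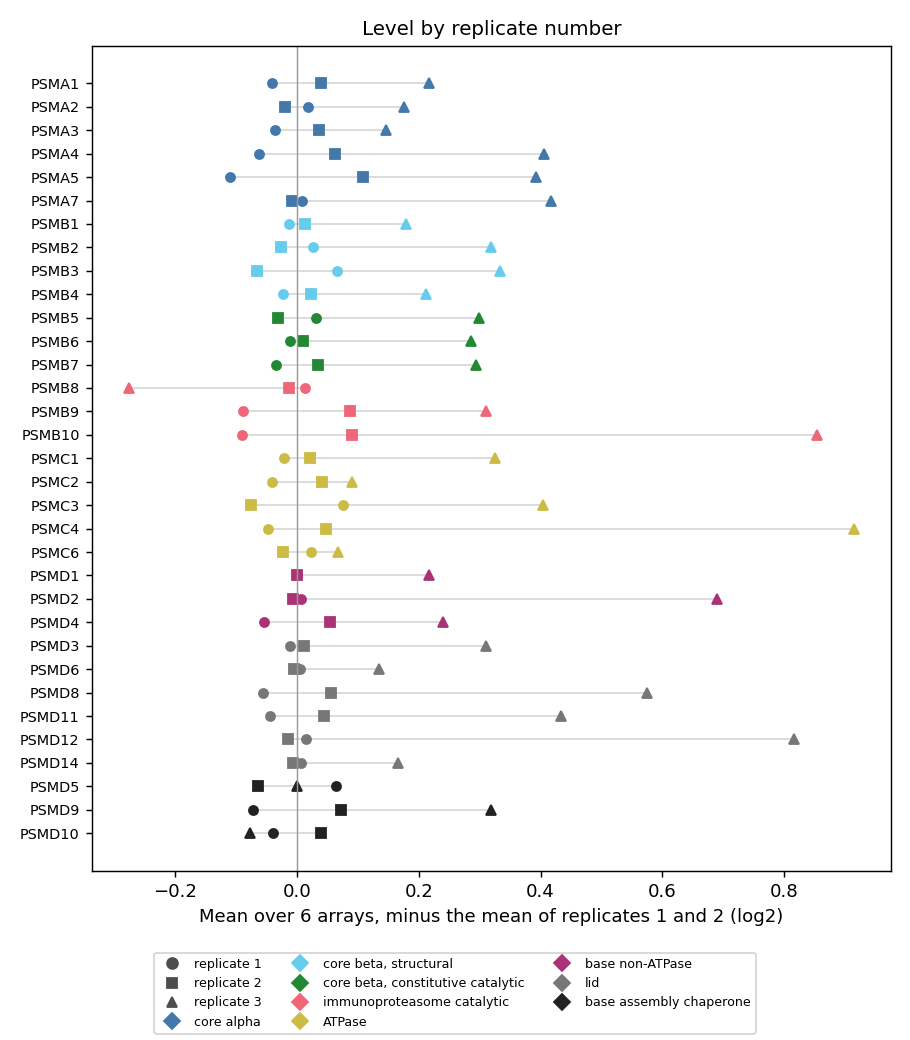
Mean of each subunit over the 6 arrays of a replicate number (log2), set against the mean of the arrays numbered 1 and 2, with symbols for the number and colours for the role. The triangles of number 3 lie right of 0 for 31 of 33 subunits, up to 0.91 for PSMC4, and left of 0 for PSMB8 and PSMD10.

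Genes that work with the proteasome are given from lists of 8 related functions, with 54 genes tested. Among activators and the inhibitor, PSMF1, which inhibits the core, measured 10.26, 10.51 and 10.40 in CsA arrays, against 9.72, 9.97 and 9.94 in control arrays at 48 h. Its groups did not overlap, and the difference was 0.52 (limma adjusted p = 0.126, and 0.0181 with the block). Of the 4 genes tested in its list, 1 passed with the block, where 10.8% of all genes did. PSME1, the activator subunit that accompanies the immunoproteasome, differed by -0.01, and the core assembly factor POMP by 0.08. None of the 6 assembly factors, 11 shuttle factors and other proteasome-associated proteins or 3 ubiquitin and E1 genes passed at 48 h, with or without the block. Of the subunits named otherwise, SEM1 differed by 0.06 and ADRM1, a ubiquitin receptor, by 0.22. SQSTM1, an autophagy receptor for ubiquitinated proteins, differed by 0.33 and the ubiquitin gene UBB by -0.04. At 24 h the smallest p of each list belonged to SEM1, PSME3, PSMG3, ZFAND5, NGLY1, UBA6, TAP1 and OAS3, with differences from -0.55 for OAS3 to 0.31 for UBA6, and at 12 h to ADRM1, PSME4, PAAF1, USP14, NFE2L1, UBB, B2M and OAS1, from -0.17 for PSME4 to 0.32 for OAS1. None of these passed at those times.

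In the antigen presentation list, 1 of 11 genes passed at 48 h with the block, where 10.8% of all genes did, and 0 without. ERAP1, the peptide-trimming aminopeptidase, measured 10.02, 10.58 and 10.77 in CsA arrays, against 9.40, 9.84 and 10.15 in control arrays. The difference was 0.66 (adjusted p = 0.104, and 0.0180 with the block). TAP1, the peptide transporter encoded beside PSMB9, differed by 0.36 (adjusted p = 0.327, and 0.164 with the block). In the interferon list, 1 of 10 passed with the block, near the same 10.8% of all genes. It was OAS3, an antiviral enzyme, with 5.44, 5.24 and 5.58 in CsA arrays, against 6.13, 6.28 and 6.47 in control arrays, a difference of -0.87 (adjusted p = 0.222, and 0.0129 with the block). The interferon list had a median of 0.08 at 48 h, with 7 of 10 above 0.

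Of the 7 genes of subunit transcription, NFE2L1 had the smallest p at 48 h. It measured 11.68, 12.22 and 12.65 in CsA arrays, against 10.93, 11.90 and 12.01 in control arrays, a difference of 0.57 (adjusted p = 0.293, and 0.118 with the block). From 24 to 48 h NFE2L1 rose by 1.48 in CsA arrays (adjusted p = 0.00101) and by 1.16 in control arrays (adjusted p = 0.0101). Over these hours 22 and 29 of the 33 subunits were lower, and a part of NFE2L1 in the subunit levels was not tested. SQSTM1 rose by 1.12 in CsA arrays (adjusted p = 0.00791) and by 1.08 in control arrays (adjusted p = 0.0188). IRF1, a factor known to act on immunoproteasome promoters, rose by 3.12 in CsA arrays (adjusted p = 0.00245) and by 2.02 in control arrays (adjusted p = 0.0427). Its CsA difference at 48 h was 1.03 (limma adjusted p = 0.466, and 0.0901 with the block). Of the 10 interferon-list genes, 6 were higher and 4 lower from 24 to 48 h in CsA arrays. There 4 rose past the test, against 12.9% of all genes, and OAS3 fell (-1.57, adjusted p = 0.00363). A part of IRF1 in the subunit levels was not tested.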

How the data were processed

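Per the submitters' processing notes, the authors summarised the Affymetrix arrays with GCRMA, and the deposited table holds 54675 probe sets in 18 arrays as log2 values. The log base was read from the range of the values. No version is given in the sources used here. Probe sets were named through GEO's platform annotation: 41091 had 1 symbol and 1801 several. The brightest probe set stood for a gene, and genes with a highest group mean of at least 4 were tested. Group means were compared with limma 3.58.1 in R 4.3.3, on all 18 arrays with 6 group terms and Benjamini-Hochberg adjustment (threshold 0.05). The script was tested on simulated data. The replicate numbers pair the arrays in the data: same-numbered deviations from group means correlated at 0.28 or above in every pair of groups, and all 18 arrays lay closest to an array of the same number. The block is therefore given where it changes a call or count.

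The members and lists were chosen with earlier results of these data known. Per-array values are given for the catalytic subunits and for genes past the threshold in a CsA comparison, and the 2 highest and 2 lowest differences at each time are named. PSMD1, PSMD3, PSMD14, PSMD10, PSMC4, PSMF1, ERAP1 and OAS3 were shown with more values after these were seen. Companion genes were PSME1, POMP, NFE2L1, SQSTM1, UBB, TAP1 and the smallest p of a list. IRF1 and the printed promoters were chosen after their values were seen. Alternatives covered the block, the level filter, a floor, quantile normalization, probe set averaging, an intensity trend, array weights, single times and leaving out arrays. Figures were drawn with matplotlib.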

Additional observations from a re-analysis of the deposited data

Results flagged for a closer look

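For 12 subunits all 3 replicate pairs lay on one side of 0 at one time and all 3 on the other side at a later one. In 11 of them CsA was below control in all 3 pairs at the earlier time and above it in all 3 at 48 h. Of all genes, 20.6% were below control in all 3 pairs at 12 h and 23.3% at 24 h. At 48 h 25.7% of all genes were above it in all 3. The share of all genes that changed sides was not computed, so whether 12 is many cannot be told. The subunits below were picked by this change of side. The CsA difference at 48 h minus that at 24 h was 1.35 for PSMB10, 0.819 for PSMB9, 0.482 for PSMA4, 0.478 for PSMC4, 0.445 for PSMD12, 0.402 for PSMA5, 0.396 for PSMD3, 0.389 for PSMA3, 0.365 for PSMD10 and 0.258 for PSMC2 on the log2 scale. The difference at 48 h minus that at 12 h was 0.439 for PSMA3, 0.404 for PSMA4, 0.375 for PSMB8 and 0.333 for PSMD12. PSMB3 went the other way: CsA was above control in all 3 pairs at 12 h and below it in all 3 at 24 h and at 48 h, and its difference changed by -0.305 between 12 and 24 h and by -0.335 between 12 and 48 h. Dimmer probe sets did not always change side. That of PSMD12 stayed below control at 12, 24 and 48 h (-0.10, -0.39 and -0.13). Those of PSMC2 gave -0.09 and 0.07 at 24 h, and -0.16 and 0.06 at 48 h. Those of PSMD10 (-0.05, then 0.29) and PSMA5 (-0.46, then 0.12) did change side from 24 to 48 h. In the third pair at 48 h PSMD12 and PSMD3 were each above control by 0.02. The change itself did not pass the limma test: the adjusted p of the F test over times was 1 for all 12. That of the 24 to 48 h contrast was 0.867 to 0.994 without the block and 0.268 to 0.446 with it for the 10 genes compared over these times, and that of PSMB3 between 12 and 24 h was 1 in both fits.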

How the results depend on the processing

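The count of subunits called by CsA at 12 h, over the average and by time was 0 under every alternative run. At 24 h array weights gave 1 of 33 (PSMD1, -0.26, adjusted p = 0.0486), where 561 of all 10717 genes passed. At 48 h the count was 1 of 33 in the arrays of that time fitted alone with the replicate block (PSMB10). Leaving out arrays gave 0 to 1 (PSMB9, without the CsA array numbered 1). The share of all genes is not given for these 48 h fits, so neither call can be set against it. In the fit of all arrays with the block, 10.8% of all genes and 0 of the 33 subunits passed at 48 h. For the F test over times in CsA arrays, the 9 subunits became 21 with the replicate block, 20 with array weights and 5 with no level filter, and 1 to 12 when arrays were left out. In control arrays the 9 became 19 with the block and 0 to 13 when arrays were left out. With the block, leaving out all arrays of 1 number, an alternative chosen after seeing the data, gave 13 in CsA arrays and 10 to 13 in control arrays. The replicate number called 19 to 25 when arrays were left out. With the block the F test over times called 47.3% of all genes in CsA arrays and 33.5% in control arrays. For the other alternatives, apart from array weights at 24 h, no figure for all genes is given here. Their counts therefore cannot be called low or high. The block changed no other count of subunits beyond those given with the results. The median at 24 h ranged from -0.27 without the CsA array numbered 3 to -0.01 without the control array numbered 3, since each leaves the pairs unequal. At 12 h the median was -0.17 without the CsA array numbered 3 and 0.04 without the control array numbered 3, and at 48 h 0.00 and 0.16 in the same order. The PSMC3IP difference kept its sign in all alternatives, but missed the threshold with no level filter (adjusted p = 0.0608), with probe sets averaged (0.0519), in the 48 h arrays alone (0.534), and in most leave-outs, with adjusted p up to 0.248.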
